A study of Mus musculus with 18 samples.

Results

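TSP 1 and TSP 2 are 2 of the 6 arrays labelled as side population cells of the mouse thyroid after partial thyroidectomy. They are described here against the other 4 TSP arrays (TSP 3 to TSP 6) and against the 6 main population arrays, out of 18 arrays in all. Both arrays were chosen by their measured log2 ratios over all genes, which lay with the main population, so their likeness to it and their distance from TSP 3 to TSP 6 are descriptions without a test. The results below ask which genes of TSP 1 and TSP 2 differed from both sets of arrays, which differed from one of them, and which from neither.

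Thyroids of C57BL/6 mice, labelled male/female, were taken after partial thyroidectomy (TSP, side population, n = 6, and TMP, main population, n = 3) or without it (CSP, side population, n = 6, and CMP, main population, n = 3). In all 4 groups the tissue was digested with collagenase and dispase, the cells were cultured for 2 days, and sorting followed staining with Hoechst 33342, with verapamil as the control that blocks dye efflux. Sample RNA carried Cy5 on an Agilent 2-colour array, and the Cy3 channel held Ambion mouse total RNA pooled from Swiss Webster tissues (thymus, spleen, brain, heart, lung, liver, kidney, ovary, testicle and embryo), without a dye swap. The design text calls the samples biological replicates without saying how many animals each holds, and the spread between arrays is therefore the spread between these samples.

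A side population is a small fraction of cells that keeps Hoechst dye out through ABC efflux pumps, above all Abcg2 and the P-glycoproteins, and such gates are known to hold endothelial and stromal cells as well as progenitors. The main population of a digested thyroid is rich in follicular epithelium, which makes thyroglobulin and carries the enzymes of hormone synthesis. Immediate early genes are induced within minutes of a stimulus such as tissue dissociation, growth factors or cytokines, and several of them, with the NF-kB inhibitor Nfkbia, are negative feedback or transient signals that fall again when the stimulus ends. In bulk RNA, fewer cells of a type and less RNA per cell cannot be told apart.

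Values are log2 Cy5 over Cy3, so 0 is the level of the pooled tissue RNA and 1 is a 2.00-fold difference from it. A gene counted as different when TSP 1 and TSP 2 both lay outside the range of the arrays they were set against, on the same side, and the means differed by at least 1 log2. The 20605 genes analysed each had a probe whose Cy5 signal cleared the scanner's background limit on 3 or more of 18 arrays. Cy5 signal was well above background on 49.9% of spots on TSP 1 and 53.7% on TSP 2, within the 38.8% to 72.0% over all arrays. Slide 1 held TSP 1 and TSP 2 together with CSP 1 and CSP 2. No main population array was on that slide, and TSP 3 to TSP 6 were on slides 3 and 5. A slide effect therefore cannot be told apart from a difference from the main population or from TSP 3 to TSP 6. CSP 1 and CSP 2 share slide 1 but are other samples than CSP 3 to CSP 6, so between them slide and sample cannot be told apart either. One fault was repaired: 10 spots of TSP 6 with a local background far above the spot had distorted the background correction of that array and were left out of it.

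TSP 1 and TSP 2 differed from TSP 3 to TSP 6 at 3853 genes, which is 18.7% of those analysed, with 1689 higher (8.2%) and 2164 lower (10.5%). Against the main population they differed at 64 genes, 0.311% of the total, with 24 higher (0.116%) and 40 lower (0.194%). The largest difference was 6.51 log2 against TSP 3 to TSP 6 and 1.79 log2 against the main population, and 1139 genes were at least 2 log2 from TSP 3 to TSP 6 against 0 from the main population. On 14808 genes (71.9%) both arrays lay inside the range of the 6 main population arrays. The count against the main population was 180 without TSP 2, 98 without TSP 1, 117 without CMP 1 and 111 without TMP 1. It was 490 with the scanner's own ratios and 1130 after the difference of CSP 1 and CSP 2 from CSP 3 to CSP 6 was subtracted gene by gene. The share of genes called higher depended on the normalization: with median centring in place of loess it was 57.6% rather than 43.8% against TSP 3 to TSP 6 and 53.6% rather than 37.5% against the main population. Against the main population it was also 56.4% after quantile normalization and 23.7% in the scanner's own ratios. Median centring moved the median of all genes to 0.07 from -0.04 in the comparison with TSP 3 to TSP 6.

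Across all genes TSP 1 correlated with the mean of the main population at r = 0.969 and TSP 2 at r = 0.975, and with the mean of TSP 3 to TSP 6 at 0.739 and 0.744 (across genes, which are not independent replicates). The SD of the difference from the main population mean was 0.339 log2 for TSP 1 and 0.305 for TSP 2, while each main population array against the mean of the other 5 had an SD of 0.394 to 0.563. The pair thus lay nearer the main population mean than its own arrays lay to each other's mean. From the mean of TSP 3 to TSP 6 the SD was 0.967 for TSP 1 and 0.964 for TSP 2, against 0.526 to 0.611 for TSP 3 to TSP 6 among themselves.

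**Figure D1:**
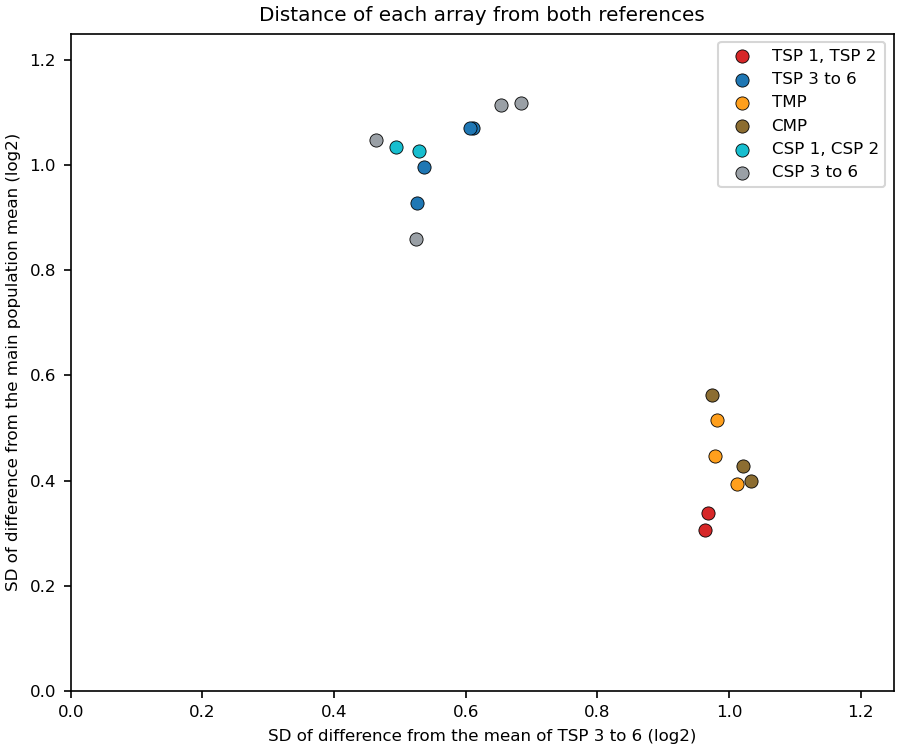
Distance of all 18 arrays from the mean of TSP 3 to TSP 6 (x axis) and from the mean of the main population (y axis), as the SD of the log2 difference over 20605 genes, each array being left out of its own group's mean. TSP 1 and TSP 2 lie at 0.339 and 0.305 on the y axis, below every main population array, and at 0.967 and 0.964 on the x axis, beside the main population.

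Among the gene lists, most epithelial and follicular genes were higher on TSP 1 and TSP 2 than on the other TSP arrays, and most endothelial and stromal genes were lower. These lists hold a small part of the 3853 genes. Of 19 measured epithelial genes, 19 were higher than in TSP 3 to TSP 6, and so were 12 of 17 thyroid follicular genes, beside 8.2% of all genes. Of 20 endothelial genes 19 were lower, as were 17 of 19 fibroblast, 12 of 13 mesenchymal transition, 9 of 13 smooth muscle and pericyte and 7 of 11 ABC transporter genes, beside 10.5% of all genes. None of the epithelial, endothelial, fibroblast, mesenchymal transition or ABC transporter genes differed from the main population, where 0.311% of all genes did, so that a count of 0 is not particular to them.

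The mean level of the epithelial list was 3.40 on TSP 1 and 3.33 on TSP 2, against -0.19 to 0.79 on TSP 3 to TSP 6 and 3.04 to 3.29 on the main population arrays. For the endothelial list it was -1.82 and -1.77, against 0.80 to 2.00 on TSP 3 to TSP 6 and -2.09 to -1.38 on the main population. For the ABC transporter list it was -1.43 and -1.34, against 0.14 to 0.64 on TSP 3 to TSP 6 and -1.51 to -1.05 on the main population. On each of these lists the 2 arrays lay apart from all 4 other TSP arrays and beside or inside the main population's range. The pump genes and cell type markers measured on TSP 1 and TSP 2 thus go against their side population label, and the arrays are called by their labels below.

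**Figure D2:**
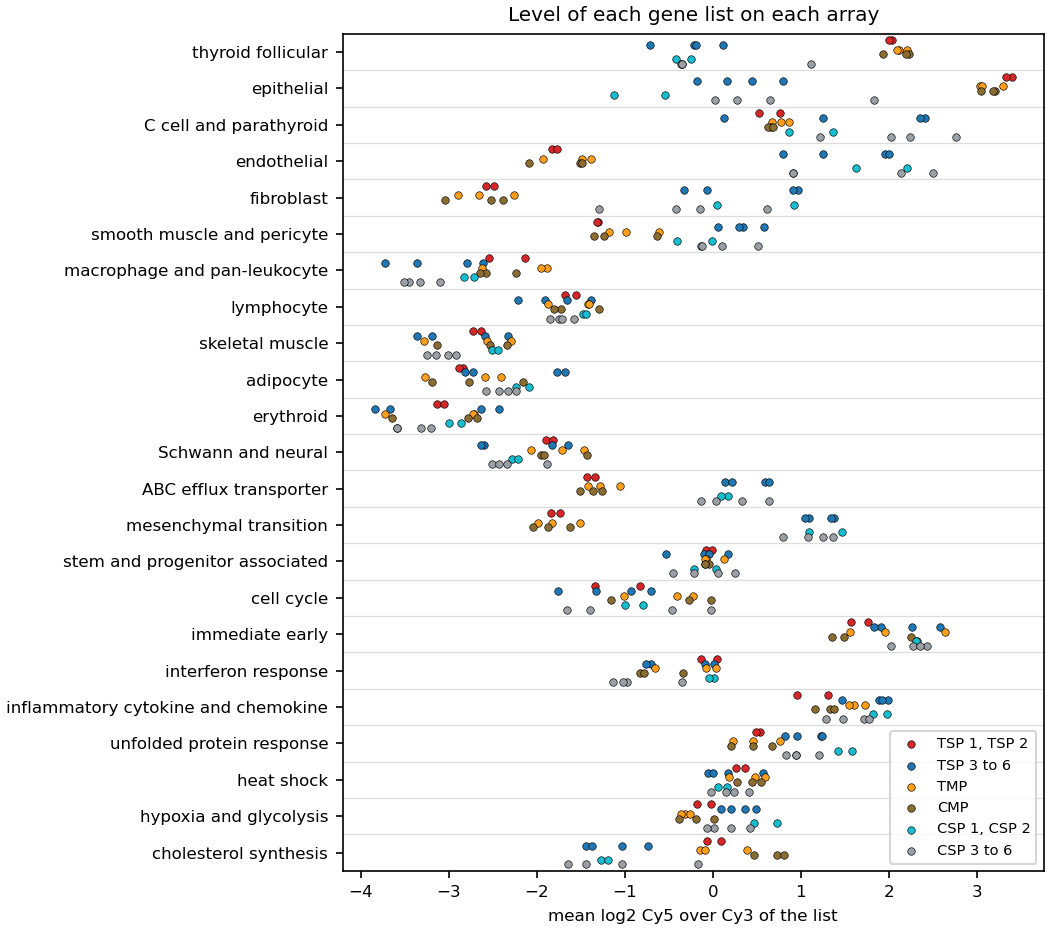
Mean log2 Cy5 over Cy3 of each gene list on each array, with TSP 1 and TSP 2 beside TSP 3 to TSP 6, the main population and CSP arrays. On the epithelial list TSP 1 and TSP 2 stand at 3.40 and 3.33, on the endothelial list at -1.82 and -1.77, in both cases beside the main population.

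Scin, which encodes the actin-severing protein scinderin, stood at 5.68 and 5.75 on TSP 1 and TSP 2, against 1.49, -1.13, -0.77 and 1.72 on TSP 3 to TSP 6. The main population arrays held 5.29, 6.12 and 6.17 (TMP) and 5.60, 6.82 and 6.38 (CMP), so the pair was 42.0-fold above the other TSP arrays and inside the main range. Krt8, a keratin of simple epithelia, averaged 5.61 ± 0.01 on TSP 1 and TSP 2 (SD, n = 2), against 1.18 ± 0.39 on TSP 3 to TSP 6 (n = 4) and 5.27 ± 0.44 on the main population (n = 6). Krt8 was also lower on the CSP arrays of slide 1 than on the other CSP arrays, a difference of -3.42 log2 (adjusted p = 0.0418, limma). Other genes with the largest excess over TSP 3 to TSP 6 and no difference from the main population were the tetraspanin Tspan1 (32.0-fold), Plet1 (26.7-fold), Clip4 (25.3-fold), Mal2, of apical transport (22.1-fold), Cdca7l (21.9-fold) and the kidney and thyroid cadherin Cdh16 (21.2-fold).

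Among the thyroid genes Tg, the thyroglobulin precursor of thyroid hormone, stood at 6.19 and 5.96 on TSP 1 and TSP 2, against 4.79, 2.71, 3.70 and 4.29 on TSP 3 to TSP 6 and 4.50 to 6.31 on the main population. Tg was thus 4.61-fold higher than in TSP 3 to TSP 6 and inside the main population's range. The transcription factors Pax8 and Nkx2-1 were higher by 3.40 and 3.25 log2, and the TSH receptor gene Tshr, not well above background on any of TSP 3 to TSP 6, was at least 5.90-fold higher. Such "at least" values compare single-channel Cy5 levels, with the lower side set at its own signal or the weakest measured signal of the array. Slc5a5, the iodide symporter, was not well above background on any of the 6 TSP arrays.

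On the opposite side Spp1, which encodes the secreted matrix protein osteopontin, stood at -1.81 and -1.36 on TSP 1 and TSP 2, against 5.03, 5.03, 4.68 and 4.95 on TSP 3 to TSP 6. That difference of 91.1-fold was the largest of the 2 comparisons, and the main population held -2.05 to -0.75 around the pair. Tm4sf1 was 84.1-fold lower, Igfbp7 76.4-fold, the calcification inhibitor Mgp 60.1-fold, the stromelysin Mmp3 54.9-fold, the fatty acid carrier Fabp4 49.1-fold and vimentin (Vim) 43.0-fold, and Mctp1 was at least 55.7-fold lower. Of the endothelial genes Vwf was lower by 5.17 log2 and Cdh5 by 4.35, and of the fibroblast genes Dcn by 4.68 and Col1a1 by 3.33.

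The pump genes that mark side populations were at main population level. Abcg2 stood at -3.66 and -3.71 on TSP 1 and TSP 2, against 0.09, -0.39, 0.58 and -0.45 on TSP 3 to TSP 6 and -3.79 to -3.09 on the main population. It was 12.5-fold lower than in TSP 3 to TSP 6, Abcb1b was lower by 3.59 log2 and Abcb1a at least 13.3-fold lower. The pump Abca3, of surfactant lipid transport in lung, was the exception in the other direction, higher by 1.44 log2.

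**Figure D3:**
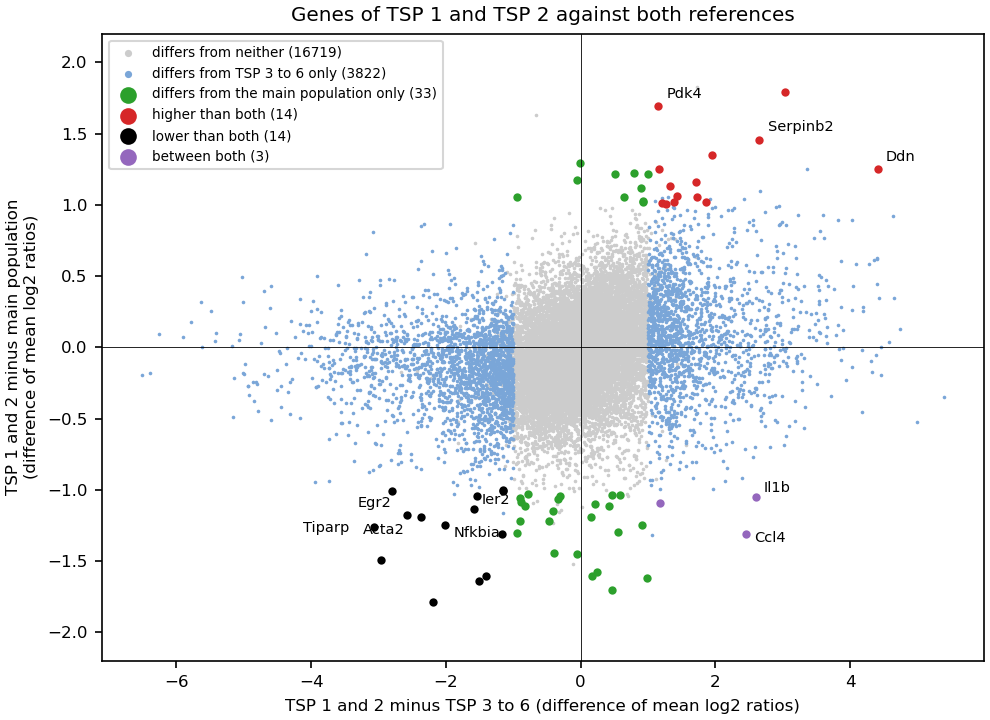
Each of 20605 genes by the difference of TSP 1 and TSP 2 from TSP 3 to TSP 6 (x axis, log2) and from the main population (y axis, log2), coloured by whether it was different from TSP 3 to TSP 6 alone, the main population alone, both or neither. Differences reach 6.51 log2 along the x axis and 1.79 along the y axis, and the 31 genes different from both lie outside 1 log2 on both axes.

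Of all genes, 16719 (81.1%) differed from neither set of arrays, 3822 (18.5%) from TSP 3 to TSP 6 alone, 33 (0.16%) from the main population alone and 31 from both. Those 31 were 0.805% of the genes different from TSP 3 to TSP 6 and 48.4% of those different from the main population. They comprised 14 genes higher than both (0.0679%), 14 lower than both (0.0679%) and 3 between both (0.0146%). Without TSP 2 there were 76, without TSP 1 53, without CMP 1 60 and without TMP 1 56. Just inside the threshold lay NAP026409-1 at 1.00 log2 from the main population, and just outside it NAP108451-1 at 0.998.

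The upstream sequences of 4 of these genes are shown, from RefSeq (GRCm38.p6), as 2 genes of each direction that were named by rule and held a searched motif. Each is the 250 bases before a transcription start, read 5′ to 3′, and the capitals mark a match to a motif: a CArG box (bound by serum response factor) in Egr2, an NF-kB motif in Nfkbia and an AP-1 motif, TGANTCA, in Capn2 and Sgms2. The Egr2 stretch is chr10:67537316-67537565 on the plus strand, with the match 72 to 63 bases before the start. The Nfkbia stretch is chr12:55492648-55492897 on the minus strand, with the match 29 to 20 bases before the start. The Capn2 stretch is chr1:182517611-182517860 on the minus strand (183 to 177 bases) and the Sgms2 stretch chr3:131490661-131490910 on the minus strand (139 to 133 bases).
Egr2: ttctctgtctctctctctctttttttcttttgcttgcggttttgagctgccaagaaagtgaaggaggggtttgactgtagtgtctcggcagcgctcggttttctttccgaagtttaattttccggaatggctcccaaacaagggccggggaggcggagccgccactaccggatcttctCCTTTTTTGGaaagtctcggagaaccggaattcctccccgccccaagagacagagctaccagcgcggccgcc
Nfkbia: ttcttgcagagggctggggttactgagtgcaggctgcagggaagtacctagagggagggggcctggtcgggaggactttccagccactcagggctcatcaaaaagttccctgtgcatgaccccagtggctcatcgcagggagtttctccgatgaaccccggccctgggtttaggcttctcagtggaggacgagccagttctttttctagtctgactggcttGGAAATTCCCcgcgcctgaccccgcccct
Capn2: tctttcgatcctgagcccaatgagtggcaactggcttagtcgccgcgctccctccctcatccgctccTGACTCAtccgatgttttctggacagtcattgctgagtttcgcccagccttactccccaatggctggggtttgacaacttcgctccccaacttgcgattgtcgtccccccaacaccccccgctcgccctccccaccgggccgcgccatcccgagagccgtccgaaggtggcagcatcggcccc
Sgms2: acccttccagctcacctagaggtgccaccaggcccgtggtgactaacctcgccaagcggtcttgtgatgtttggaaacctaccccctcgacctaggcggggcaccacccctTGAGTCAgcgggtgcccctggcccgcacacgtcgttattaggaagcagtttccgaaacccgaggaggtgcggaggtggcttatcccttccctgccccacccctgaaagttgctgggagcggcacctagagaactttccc

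Motifs were searched on both strands of the 250 upstream bases of 32851 starts, in which the CRE TGACGTCA occurred in 1.55%, AP-1 in 6.75%, the CArG box in 1.47% and NF-kB in 7.25%, and none of the 4 matches shown overlaps another of these motifs. Of 9 genes lower than both with a start in that table, Egr2 held a CArG box (at 4 of its 5 starts), Egr2 and Nfkbia held NF-kB, Oog4 held AP-1 and 0 held a CRE. Of 8 genes higher than both, Capn2, Serpinb2 and Sgms2 held AP-1 (Sgms2 at 2 of its 6 starts) and 0 held the other motifs. The shares are per start, whereas a gene was counted with a match at any of its starts, so shares and gene counts are not on the same scale. These matches describe letters in a window, not binding.

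Serpinb2, an inhibitor of the urokinase plasminogen activator, stood at 4.90 and 4.76 on TSP 1 and TSP 2, against 0.69, 1.96, 2.90 and 3.14 on TSP 3 to TSP 6 (probe at chr1:107424857-107424916, mm7). The main population held 3.95, 3.65 and 2.42 (TMP) and 4.00, 3.82 and 2.38 (CMP). Both arrays were above all others of either set, 6.30-fold above the mean of TSP 3 to TSP 6 and 2.74-fold above that of the main population. CSP 1 and CSP 2, on the same slide, also averaged 1.50 log2 above CSP 3 to CSP 6, and after that CSP difference was subtracted Serpinb2 no longer differed from the main population (-0.05 log2).

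Pdk4, a kinase that turns off pyruvate dehydrogenase and so spares glucose, stood at -0.44 and -0.13 on TSP 1 and TSP 2, against -2.09, -1.67, -0.58 and -1.40 on TSP 3 to TSP 6 (probe at chr6:5436327-5436386). The main population held -1.33, -1.22 and -1.90 (TMP) and -1.96, -2.79 and -2.64 (CMP), and the pair was 3.23-fold above their mean. The pair thus lay above every array of both sets, although TSP 5 came close to TSP 1. With median centring Pdk4 differed from the main population alone.

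Sgms2, a sphingomyelin synthase, stood at 1.41 and 1.62 on TSP 1 and TSP 2, against 0.08, -0.50, -0.12 and -0.32 on TSP 3 to TSP 6, 0.95, 0.30 and 0.09 on TMP and 0.78, 0.46 and 0.17 on CMP arrays (probe at chr3:131159327-131159386). Capn2, the large subunit of a calcium-dependent protease, stood at 2.11 and 2.11 on TSP 1 and TSP 2, against 0.59, 0.70, -0.30 and 0.00 on TSP 3 to TSP 6, 1.95, 1.49 and -0.19 on TMP and 1.91, 1.32 and 0.09 on CMP arrays (probe at chr1:182452911-182452970). For both genes the pair was above every array of both sets, by 1.73 and 1.86 log2 over the mean of TSP 3 to TSP 6 and by 1.06 and 1.02 over that of the main population. For both the CSP arrays of slide 1 lay close to the other CSP arrays, with differences of -0.11 for Sgms2 and -0.21 for Capn2.

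The other named genes higher than both were Kctd10 (by 1.16 log2 over TSP 3 to TSP 6 and 1.25 over the main population), Pym1, a partner of the exon junction complex (1.32 and 1.13), and Dusp16, a phosphatase of stress-activated MAP kinases (1.44 and 1.06). Dusp16 stood at -0.72 and -0.50 on TSP 1 and TSP 2, against -2.56 to -1.64 on TSP 3 to TSP 6, and the highest main population array, TMP 1, stood at -1.08. Kctd10 and Dusp16 differed from neither set once the difference of CSP 1 and CSP 2 from CSP 3 to CSP 6 was subtracted, and Pym1 differed from neither with median centring. The remaining 7 of the 14 are named as in the files, without a matched accession, and include Ddn, whose levels of 2.77 and 2.95 exceeded TSP 3 to TSP 6 (-2.07 to -0.92) 21.3-fold and the main population (0.87 to 2.42) 2.38-fold. Ddn was well above background on 2 of the 4 arrays TSP 3 to TSP 6. A probe listed as NM_013798 had the largest difference from the main population, 1.79 log2, but also differed within the pair, at 4.26 on TSP 1 and 2.89 on TSP 2.

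**Figure D4:**
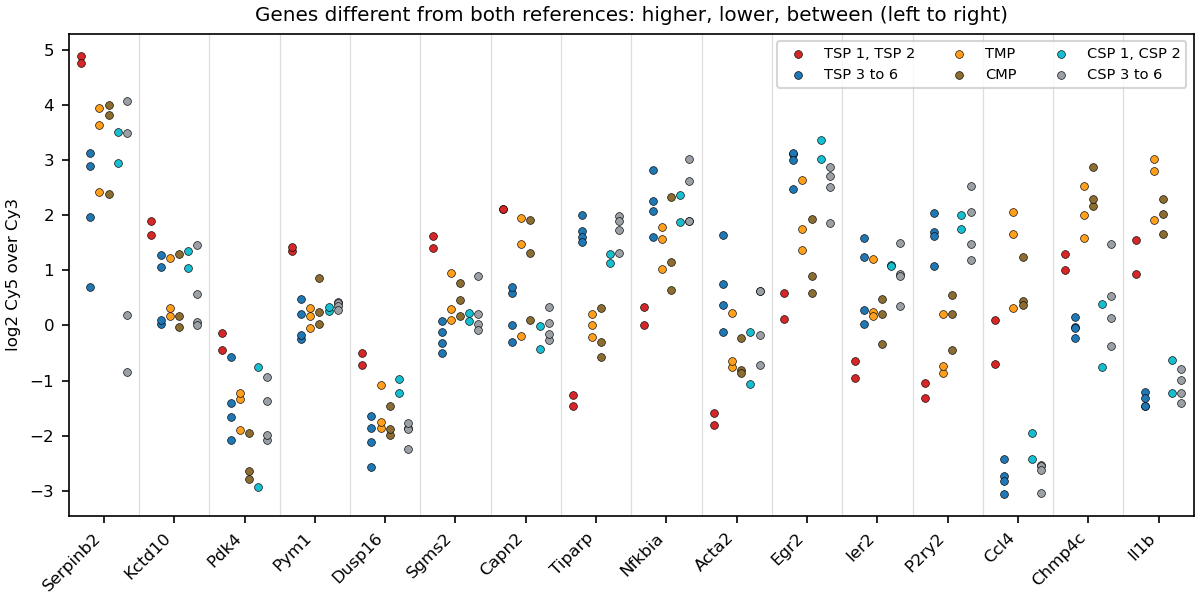
Log2 Cy5 over Cy3 of the 16 named genes different from both, on TSP 1 and TSP 2, TSP 3 to TSP 6, TMP, CMP and CSP arrays. Serpinb2 stands at 4.90 and 4.76 on TSP 1 and TSP 2, and Tiparp at -1.45 and -1.27, in each case outside the TSP 3 to TSP 6 and the main population values.

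Tiparp, an ADP-ribosyltransferase induced by the aryl hydrocarbon receptor, stood at -1.45 and -1.27 on TSP 1 and TSP 2, against 2.00, 1.72, 1.61 and 1.51 on TSP 3 to TSP 6 (probe at chr3:65655900-65655959). The main population held 0.20, 0.01 and -0.21 (TMP) and 0.31, -0.31 and -0.57 (CMP). The pair was 8.39-fold below TSP 3 to TSP 6 and 2.40-fold below the main population, with no overlap, while CSP 1 and CSP 2 stood at 1.13 and 1.29. After the CSP difference was subtracted, Tiparp differed from TSP 3 to TSP 6 alone.

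Nfkbia, the inhibitor that holds NF-kB in the cytoplasm and is itself induced by it, stood at 0.01 and 0.33 on TSP 1 and TSP 2, against 2.83, 2.07, 2.26 and 1.60 on TSP 3 to TSP 6, 1.79, 1.57 and 1.02 on TMP and 2.34, 1.15 and 0.65 on CMP arrays (probe at chr12:53415998-53416493). It was lower than in every other array of the series, the CSP arrays (1.88 to 3.02) included, 4.04-fold below TSP 3 to TSP 6 and 2.37-fold below the main population. Its call held in all 5 other normalizations and after subtracting the CSP difference.

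Egr2, a zinc finger transcription factor of the immediate early response, stood at 0.12 and 0.59 on TSP 1 and TSP 2, against 3.11, 3.13, 2.47 and 3.01 on TSP 3 to TSP 6, 2.64, 1.76 and 1.37 on TMP and 1.94, 0.59 and 0.90 on CMP arrays (probe at chr10:67145376-67145435). It was 5.96-fold below TSP 3 to TSP 6 and 2.26-fold below the main population, with TSP 2 only just under CMP 2, and it no longer differed from the main population with median centring, scaling or quantile normalization. Ier2, another immediate early gene, stood at -0.96 and -0.65 on TSP 1 and TSP 2, against 1.59, 1.24, 0.27 and 0.02 on TSP 3 to TSP 6, 1.20, 0.25 and 0.17 on TMP and 0.48, -0.33 and 0.21 on CMP arrays. Ier2 was 3.00-fold below TSP 3 to TSP 6 and 2.19-fold below the main population, in every normalization tried.

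Acta2, the smooth muscle actin, stood at -1.82 and -1.59 on TSP 1 and TSP 2, against -0.11, 0.75, 0.37 and 1.64 on TSP 3 to TSP 6 and -0.87 to 0.23 on the main population (probe at chr19:33942803-33942862). It was 5.15-fold and 2.28-fold lower. Acta2 was the single member of the smooth muscle and pericyte list to differ from both, beside 31 of all 20605 genes. Of the 13 list members, 4 (30.8%) lay below all main population arrays whatever the size of the difference, beside 5.81% of all genes. P2ry2, a receptor for extracellular ATP and UTP, stood at -1.05 and -1.32 on TSP 1 and TSP 2, against 1.08 to 2.05 on TSP 3 to TSP 6 and -0.87 to 0.55 on the main population, 6.97-fold and 2.01-fold lower. After quantile normalization P2ry2 differed from TSP 3 to TSP 6 alone, as did Acta2 after the CSP difference was subtracted.

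Of 17 immediate early genes measured, TSP 1 and TSP 2 were lower than TSP 3 to TSP 6 at 5 (Junb, Egr1, Egr2, Ier2, Dusp1) and higher at 2 (Jund, Klf6), beside 10.5% and 8.2% of all genes. Against the main population 4 lay below all 6 arrays whatever the size of the difference (Egr2, Ier2, Junb, Myc), which is 23.5% of the list beside 5.81% of all genes. Junb stood at 0.35 and 0.37 on TSP 1 and TSP 2, against 1.39 to 2.51 on TSP 3 to TSP 6 and 0.62 to 1.29 on the main population. Fos stood at 3.02 and 3.43, within the ranges of TSP 3 to TSP 6 (2.55 to 3.77) and of the main population (2.81 to 5.73). Atf3 was the exception on the upper side, at 4.22 and 4.20 against 3.43 to 4.17 on the main population. The list therefore did not move as a block: its median difference from the main population was -0.28, with 9 of 17 below the mean, beside a median of -0.04 and 56.4% of all genes.

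**Figure D5:**
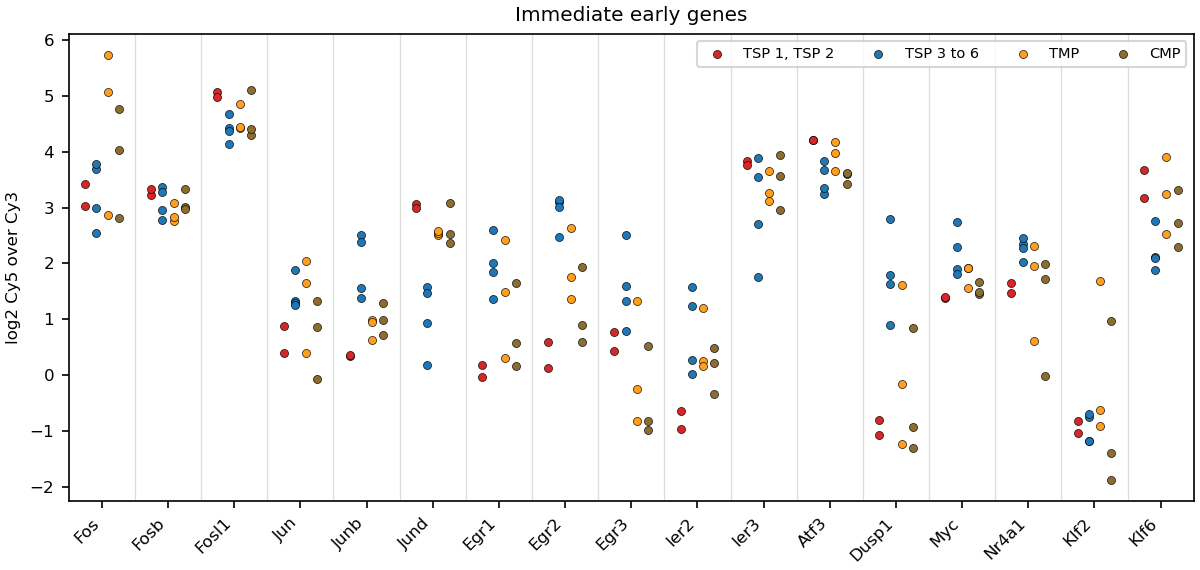
Log2 Cy5 over Cy3 of the 17 immediate early genes on TSP 1 and TSP 2, TSP 3 to TSP 6, TMP and CMP arrays. Egr2, Ier2, Junb and Myc lie below all 6 main population arrays on TSP 1 and TSP 2, while Fos lies among them.

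The 3 genes between both sets were inflammatory mediators Ccl4 and Il1b and the membrane-remodelling gene Chmp4c. Il1b, which encodes interleukin 1 beta, stood at 0.93 and 1.55 on TSP 1 and TSP 2, against -1.21, -1.31, -1.45 and -1.47 on TSP 3 to TSP 6, 2.80, 1.91 and 3.02 on TMP and 1.66, 2.02 and 2.30 on CMP arrays. It was at least 5.00-fold above TSP 3 to TSP 6, where no array had it well above background, and 2.07-fold below the main population. With the scanner's own ratios, scaling or quantile normalization it differed from TSP 3 to TSP 6 alone.

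Ccl4, a chemokine of macrophages, stood at -0.69 and 0.09 on TSP 1 and TSP 2, against -2.73, -3.05, -2.82 and -2.42 on TSP 3 to TSP 6, 1.65, 0.31 and 2.06 on TMP and 0.44, 0.37 and 1.23 on CMP arrays. It was 2.48-fold below the main population, and 5.49-fold above TSP 3 to TSP 6, of which 1 of 4 arrays had it well above background. Chmp4c was at least 1.54-fold above TSP 3 to TSP 6 and 2.13-fold below the main population. With the scanner's own ratios and after the CSP difference was subtracted Chmp4c differed from TSP 3 to TSP 6 alone, and with median centring from neither.

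Of 19 inflammatory genes measured, 8 were lower than in TSP 3 to TSP 6 and 4 higher, beside 10.5% and 8.2% of all genes. Il6 stood at 4.00 and 3.66 on TSP 1 and TSP 2, against 8.11, 7.97, 7.65 and 8.54 on TSP 3 to TSP 6 and 3.46 to 4.09 on the main population, an 18.9-fold difference from the other TSP arrays. The chemokines Ccl7 and Cxcl12 were lower by 3.74 and 2.68 log2, while Tnf and the interleukin 1 antagonist Il1rn were higher by 2.73 and 3.54. Of 20 macrophage and pan-leukocyte genes, 7 were higher and 1 (Cd14) lower than in TSP 3 to TSP 6, with Ctss higher by 3.63 log2, and 0 differed from the main population, beside 8.2%, 10.5% and 0.311% of all genes.

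The 33 genes that differed from the main population alone comprised 10 higher and 23 lower. Mmp14, a membrane-bound matrix metalloprotease, stood at 0.85 and 0.78 on TSP 1 and TSP 2, against 1.60, 1.74, 1.65 and 2.03 on TSP 3 to TSP 6 and -0.61 to 0.18 on the main population, so that the pair lay between the sets. Dot1l, a histone H3 methyltransferase, averaged 1.48 ± 0.05 on TSP 1 and TSP 2, against 1.49 ± 0.85 on TSP 3 to TSP 6 and 0.19 ± 0.17 on the main population (SD). The amino acid transporter Slc38a2, the clock gene Cry1 and the glycolytic kinase Pkm were higher than the main population by 1.18, 1.22 and 1.22 log2, and Ralgapa1 and Ppp6r3 by 1.06 and 1.03. After the CSP difference was subtracted, 4 of these 7 genes were no longer 1 log2 above the main population: Mmp14 (0.41), Dot1l (0.72), Pkm (-0.063) and Ppp6r3 (0.21).

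On the lower side Duox1, an oxidase that makes hydrogen peroxide for iodination, stood at 0.01 and -0.14 on TSP 1 and TSP 2, against -0.14 to 0.06 on TSP 3 to TSP 6 and 1.23 to 1.63 on the main population. It was 2.73-fold below the main population and was the single follicular gene to differ from it, although 1 of the 4 arrays TSP 3 to TSP 6 had it well above background. Duox1 was also lower on CSP 1 and CSP 2 than on CSP 3 to CSP 6, a difference of -0.61 log2, and with that subtracted it was less than 1 log2 below the main population. Gcnt1, a glycosyltransferase, was lower than the main population by 1.70 log2, the neurotrophic factor gene Cntf (outside the naming rule) by 1.61, the stress-induced mTOR inhibitor Ddit4 by 1.30, the actin nucleator Diaph3 by 1.25 and the Notch target Hes1 by 1.22. Ddit4 (-1.75 and -1.52) and Hes1 (-0.67 and -0.50) also lay below every TSP 3 to TSP 6 array, by less than 1 log2. Crct1, Crygs, Bpifa1 and Tmsb10 were lower by 1.62, 1.57, 1.30 and 1.11, and Chac1, of the unfolded protein response, by 1.03. With the CSP difference subtracted, Crct1 stood above the main population (0.67), and Diaph3 (-0.82) and Crygs (-0.98) were less than 1 log2 from it, as were Gcnt1 and, by a narrow margin, Hes1.

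On several gene lists with no gene different from the main population, most members were on one side of its mean, as were 56.4% of all genes on the lower side. The cell cycle, cholesterol synthesis and interferon lists are described here, and the trait is not particular to them. Below the mean also lay 5 of 5 adipocyte and 6 of 8 heat shock genes, and above it 14 of 19 epithelial genes. Of 18 cell cycle genes, 17 were below the main population mean, with a median of -0.61. Of these genes 0 lay below all 6 arrays, beside 5.81% of all genes, so that a count of 0 is not particular to the list. The mean of the cell cycle list was -1.34 on TSP 1 and -0.83 on TSP 2, against -1.16 to -0.03 on the main population. Of 17 cholesterol synthesis genes, 15 were below that mean (median -0.41), while 10 were higher than in TSP 3 to TSP 6, beside 8.2% of all genes, among them Idi1 by 1.71 log2 and Fdft1 by 1.86. The mean level of the cholesterol list was 0.09 on TSP 1 and -0.07 on TSP 2, against -0.14 to 0.39 on TMP and 0.47 to 0.81 on CMP arrays, inside the range of the main population. Of 16 interferon response genes, 15 were above the main population mean (median 0.37), and the CSP arrays of slide 1 were above the other CSP arrays on this list by a median of 0.87. The mean of the interferon list was -0.14 on TSP 1 and 0.045 on TSP 2, against -0.83 to 0.037 on the main population.

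The 2 arrays were also close to each other. They correlated at r = 0.982 across genes, and 86 genes were at least 1 log2 apart, against 610 to 3179 for the other pairs of one group on one slide. Of those 86, 54 were higher on TSP 2 and 32 on TSP 1. The X-inactivation transcript Xist stood at 1.01 on TSP 1 and -0.57 on TSP 2. Of the macrophage and pan-leukocyte genes 18 of 20 were higher on TSP 2, with a median of 0.40, and of the cell cycle genes 15 of 18, with a median of 0.56. Over all genes 49.1% were higher on TSP 2, with a median of -0.004. Other lists were as one-sided: 15 of 16 interferon response genes were higher on TSP 2, but only 2 of 17 cholesterol synthesis genes.

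CSP 1 and CSP 2 shared slide 1 with TSP 1 and TSP 2 and were not used in choosing them, but they also differed from CSP 3 to CSP 6 in cell type markers, with a median of -1.49 over the epithelial and 0.80 over the fibroblast list. By the same description CSP 1 and CSP 2 differed from CSP 3 to CSP 6 at 888 genes (4.31%), with 371 higher (1.8%) and 517 lower (2.51%). In limma with Benjamini-Hochberg adjustment over all genes, fitted without TSP 1 and TSP 2, 32 genes (0.155%) passed 0.05, with 10 higher (0.0485%) and 22 lower (0.107%). The lowest adjusted p-values in limma were for Bex4 (-2.98 log2, adjusted p = 0.000977), Mcoln3 (-2.27, adjusted p = 0.00511), Dmrt2 (-2.65, adjusted p = 0.00637), Gata3 (-2.64, adjusted p = 0.00868) and Bex1 (-2.47, adjusted p = 0.00868) among lower genes. Among higher genes they were for B3gntl1 (2.33, adjusted p = 0.00511 in limma) and Abi3bp (2.43, adjusted p = 0.0144 in limma). The limma count was 0 without CSP 2, 4 without CSP 1, 14 without CSP 3 and 19 without CSP 5, and 8 with all spots of TSP 6 in the background correction.

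None of the 31 genes different from both passed limma in the CSP arrays. Only 0.155% of all genes did, so a count of 0 is not particular to these genes. By the description, 4 of the 31 differed in CSP 1 and CSP 2 in either direction, beside 4.31% of all genes in either direction. All 4 differed in the same direction as on TSP 1 and TSP 2: 4930544G11Rik (higher), Fibp, LOC383229 and the embryonic globin gene Hbb-y (lower). Hbb-y stood at -3.08 and -3.09 on TSP 1 and TSP 2, -2.19 and -2.57 on CSP 1 and CSP 2, -1.34 to -0.38 on TSP 3 to TSP 6 and -1.22 to -0.54 on CSP 3 to CSP 6. Hbb-y was well above background on 0 of the arrays CSP 1 and CSP 2 and on 2 of the 4 arrays TSP 3 to TSP 6. LOC383229 was well above background on 0 of the arrays TSP 1 and TSP 2. For 4930544G11Rik and Fibp all 18 arrays were well above background. The 4 genes were singled out after their values were seen. Set against CSP 3 to CSP 6 and the main population, CSP 1 and CSP 2 were higher than both at 182 genes (0.883%), lower at 245 (1.19%) and between at 32 (0.155%).

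Genes that differed between CSP 1 and CSP 2 and the other CSP arrays did not all differ in the same way on TSP 1 and TSP 2. Bex4 stood at -0.06 and 0.05 on TSP 1 and TSP 2, against -0.10 to 0.96 on TSP 3 to TSP 6, while CSP 1 and CSP 2 held -2.28 and -2.37 against 0.30 to 0.95 on CSP 3 to CSP 6. Bex4 was thus low on CSP 1 and CSP 2 and not on TSP 1 and TSP 2. Gata3, a transcription factor, stood at -1.39 and -1.68 on TSP 1 and TSP 2, against 0.25 to 1.80 on TSP 3 to TSP 6. On CSP 1 and CSP 2 Gata3 stood at -0.90 and -1.29, against 1.08 to 2.10 on CSP 3 to CSP 6. On TSP 1 and TSP 2 Gata3 differed from TSP 3 to TSP 6 alone and not from the main population, as did 18.5% of all genes.

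Whether TSP 1 and TSP 2 lay with the operated or the control main population was read on genes that separate TMP from CMP. In limma with Benjamini-Hochberg adjustment no gene passed 0.05 for TMP against CMP (0 genes, 0.0%, with 59 at an unadjusted p under 0.05), and with the replicate number as a block 6 genes passed (0.0291%), 5 higher (0.0243%) and 1 lower (0.00485%). By the description 8 genes differed (0.0388%), 7 higher (0.034%) and 1 lower (0.00485%) in TMP. The genes were placed on a scale with 0 at the CMP mean and 1 at the TMP mean. The median over these 8 genes was 0.218 for TSP 1 and 0.717 for TSP 2. When 1 main population array at a time was left out, the genes were picked anew, 12 to 95 of them. The medians over those other sets were 0.0426 to 0.466 for TSP 1 and 0.445 to 0.752 for TSP 2. TSP 1 was closer to TMP on 0 of the 8 genes and TSP 2 on 6. Among the sets picked anew, TSP 1 was closer to TMP on 0 of 12 genes without TMP 1, 20 of 44 without CMP 3 and 37 of 95 without TMP 3. On the same sets TSP 2 was closer to TMP on 6, 32 and 66 genes. The 8 include Gpnmb, which was also among the genes furthest apart within the pair, 1.06 log2 higher on TSP 2. Whether the difference between TSP 1 and TSP 2 on these genes goes with surgery was not tested.

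The gene lower in TMP was Fabp5, a fatty acid binding protein, which stood at 0.55 and 0.65 on TSP 1 and TSP 2, against -0.46, -0.08 and -0.24 on TMP and 0.86, 1.21 and 0.78 on CMP arrays. The pair lay between the groups and nearer to CMP. BC005655 stood at -2.09 and -1.57 on TSP 1 and TSP 2, against -1.33, -1.02 and -0.90 on TMP and -2.96, -3.12 and -2.44 on CMP arrays. On BC005655 TSP 2 lay nearer to TMP than TSP 1 did.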

How the data were processed

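Expression was measured on 18 Agilent 2-colour arrays (45018 spots, 41174 probes). Cy5 and Cy3 mean signals and local backgrounds are intensity values as the authors deposited them in scanner output, written by Feature Extraction 9.5.1.1 per the file headers (8.5.1.1 per the submitters' processing notes). The log10 ratio of red over green, per the file headers, is the scanner software's own dye-normalized value and served as an alternative. The deposited value table holds log2 values for 22208 probes. Set against the scanner ratios, 10 of its columns match best their own sample's file and 8 another file of the same group, and its main-like TSP columns are 1 and 4. Scale and direction were read from this match, and scanner files were used for all results.

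Signals were corrected with normexp (limma 3.58.1, R 4.3.3, offset 50) and loess within arrays, with control spots at weight 0 and without outlier spots. Replicate spots gave 1 mean per probe. The brightest probe of a gene that cleared background on 3 or more arrays stood for it. Of the probes, 22951 were named through RefSeq accessions and the others as in the files, whose names can be old. The analysis as first planned and run used every spot in normexp. On TSP 6, 10 spots with a local background more than 500 above the spot drove the fitted background mean to -636 in Cy5 and -709 in Cy3 (-85.9 to 23.6 on the other arrays) and shrank its median absolute log2 ratio to 0.129 (0.468 to 0.525 on the others, 0.470 after repair). They were left out. This repair, which changes TSP 6 alone, was chosen after results with all spots had been seen.

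TSP 1 and TSP 2 were chosen for their profile, and the members and gene lists (24 lists, 318 of 331 genes measured) were chosen with earlier results of these data known. Differences of TSP 1 and TSP 2 therefore have no test. The contrasts of CSP on slide 1 with other CSP, and of TMP with CMP, were fitted with limma (lmFit and eBayes, Benjamini-Hochberg adjusted p-value) on the 16 other arrays at 5 group levels. Replicate numbers pair TMP with CMP arrays: their deviations from the group means correlated at 0.664, 0.740 and 0.806 for equal numbers and at -0.585 to 0.0908 otherwise, and equal numbers also share a slide. Named genes were those with a matched symbol, measured on their higher side, with the largest differences in each class (up to 10 higher and 10 lower than both, 6 between, 8 in each direction of the other classes, 5 in each direction of the slide fit), with fixed list members. Other genes named were picked after their values were seen. Figures were drawn with matplotlib 3.10.9. The number of arrays limits the precision. Probe positions are mm7, per the file headers. No accession table gave Ier2 a start, and miRNA sequences were not used here. A few genes of the lists are not reported here by name.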

Additional observations from a re-analysis of the deposited data

Results flagged for a closer look

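The TSP and CSP groups, of 6 arrays each, were searched for outlying arrays over the genes named by rule and the 24 gene lists. Many of those genes were named for their values on these arrays, so the share flagged does not describe all genes. In 8 of 244 groups tested (3.28%) an array's gap to the next value was past Dixon's 95% limit, which chance gives in about 1 in 20 groups. Of the 8, 6 were on CSP 6 among the CSP arrays, 1 on CSP 4 and 1 on TSP 3. Because the rule uses the gap to the nearest value, TSP 1 and TSP 2, which mostly lay together, could hide each other. The lack of a flag on either of them therefore does not describe that pair. CSP 6 stood at 1.70 for Pax8, where the next highest CSP array stood at 0.54, and at 0.47 for Dio1 (next -1.13). The mean level of the thyroid follicular list was 1.12 on CSP 6, with the next CSP array at -0.25. CSP 6 also stood apart for Clip4 (-0.27, next -2.31), Crygs (1.33, next 0.01) and Diaph3 (2.10, next 0.54). On CSP 4, Sgms2 stood at 0.90 (next 0.22), and on TSP 3, Calca, the calcitonin gene of C cells, stood at 1.50, the next lowest TSP array being at 3.64.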

How the results depend on the processing

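Differences of TSP 1 and TSP 2 from TSP 3 to TSP 6 kept their number in most settings, while the small sets different from the main population moved. The counts against the main population and different from both were 490 and 215 with the scanner's own ratios (25 of the 31 shared) and 97 and 59 with median centring. Quantile normalization gave 55 different from both. A minimum of 2 log2 gave 1139 genes against TSP 3 to TSP 6, 0 and 0. With no minimum the 3 counts were 9035, 1915 and 1150. With genes well above background on all 18 arrays they were 2122, 35 and 17 of 10469. With the difference of CSP 1 and CSP 2 from CSP 3 to CSP 6 subtracted, 1130 and 713 (14 shared). In the deposited values, 155 and 82. Leaving out 1 array at a time gave 54 to 180 against the main population, 26 to 76 different from both and 3893 to 4043 against TSP 3 to TSP 6. Of the 31, 18 kept their class in all 5 other normalizations and 8 also after that subtraction: 5133401H06Rik, BC027183, Capn2, Ccl4, Ddn, Ier2, Nfkbia and Sgms2. The cause of these changes was not tested.

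Chosen after seeing the data, leaving out slide 5 gave 117 against the main population and 44 different from both (14 shared), normexp with all spots 3640, 64 and 33 (31 of 31 kept), and normexp without background-marked spots 1873, 29 and 16 of 9921 genes (16 of 16 testable kept). For the CSP arrays of slide 1, 631 genes passed with the scanner's ratios, 79 without the filter on dim probes, 8 with all spots, 7 without background-marked spots and 91 with all 18 arrays in the fit, and leaving out 1 array gave 0 to 36. For TMP against CMP the replicate block gave 6, and the other settings 0. Of 774 recomputed differences of 98 named genes, 631 moved by less than 1 SD, 132 by more, and 11 reversed, all with the CSP difference subtracted: 4930544G11Rik (-0.021 and -0.62), Bex1 (0.74), Crct1 (0.67), Dmrt2 (0.15), Fibp (0.20 and 0.058), Gata3 (0.011), Mcoln3 (1.14), Pkm (-0.063) and Serpinb2 (-0.047). Signal over background limits genes near the scanner's floor, and 2 arrays limit every statement.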

Other observations

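Of 9 C cell and parathyroid genes measured on TSP 1 and TSP 2, 0 differed from TSP 3 to TSP 6 and 0 from the main population. Those counts stand beside 18.7% and 0.311% of all genes, so a 0 against the main population is not particular to this list. The mean level of the list ranged from 0.13 to 2.41 on TSP 3 to TSP 6. Pth, parathyroid hormone, stood at 6.27 and 6.42 on TSP 1 and TSP 2, against 5.21 to 7.04 on TSP 3 to TSP 6 and 5.69 to 6.68 on the main population. Calca stood at 3.64 and 4.15, against 1.50 to 4.56 on TSP 3 to TSP 6 and 3.43 to 4.47 on the main population. For both genes every array of the series lay above the pooled tissue RNA. Of the other cell types, 0 of 11 skeletal muscle and 0 of 4 erythroid genes differed from either set, beside the same shares of all genes. Against TSP 3 to TSP 6, 1 of 10 lymphocyte and 1 of 8 Schwann and neural genes were higher and 1 of 5 adipocyte genes lower, beside 8.2% and 10.5% of all genes, and 0 differed from the main population.

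Among 12 stem and progenitor associated genes, 3 were higher than in TSP 3 to TSP 6 (among them Sox9 by 2.76 log2 and Itga6 by 1.46) and 2 lower (Cd34 by 3.93 and Ly6a by 1.47), beside 8.2% and 10.5% of all genes. Sox9 stood at 3.24 and 3.51 on TSP 1 and TSP 2, against 0.39 to 0.88 on TSP 3 to TSP 6 and 3.13 to 3.40 on the main population. None of the 12 differed from the main population, where 0.311% of all genes did, so that a count of 0 is not particular to them.

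Of 14 hypoxia and glycolysis genes, 4 were lower than in TSP 3 to TSP 6 (Egln3, Pgk1, Slc2a1 and Hk2), beside 10.5% of all genes, and 0 differed from the main population, beside 0.311%. Egln3, an oxygen-sensing hydroxylase, stood at -0.82 and -0.81 on TSP 1 and TSP 2, against 1.59 to 2.46 on TSP 3 to TSP 6 and -1.56 to -0.65 on the main population.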
